A study of Mus musculus with 12 samples.

Results

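The genes described here encode the repressor arm of the circadian clock: the Period genes Per1, Per2 and Per3, the cryptochrome genes Cry1 and Cry2, and Ciart, which encodes CIART (also called CHRONO). They were taken by gene symbol and are 6 of the 38924 genes counted in each kidney library. All 6 had enough reads to enter the test. The RNA came from whole kidneys of C57BL/6J mice, in 4 groups of 3 libraries: knockout (KO) kidneys at zeitgeber time 16 (ZT16, in the dark phase), wild-type (WT) kidneys at ZT16, KO kidneys at ZT4 (in the light phase) and WT kidneys at ZT4. KO mice carried floxed Bmal1 (Arntl) alleles with the Pax8-rtTA and LC-1 Cre transgenes, and WT mice were their littermates. The labels describe doxycycline (2 mg/ml in the drinking water for 2 weeks from 8 weeks of age) for the floxed mice, and do not say whether WT littermates drank it. Pax8-rtTA drives Cre in renal tubule cells, so other kidney cells of a KO mouse keep Arntl. Mice lived in 12 h of light and 12 h of dark. Neither the sex of the mice is stated, nor whether replicates were different mice, and p-values therefore speak only of variation among these libraries, part of which may be technical.

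BMAL1 and its partner CLOCK bind E-box DNA and switch on the Per and Cry genes. PER and CRY proteins gather in the cytoplasm, enter the nucleus together and block CLOCK and BMAL1 until they are degraded, which closes the main feedback loop of the clock. Among them CRY1 and CRY2 do most of the direct repression, PER2 and PER1 bring the cryptochromes and kinases to the complex, PER3 is not needed for a rhythm, and CIART binds BMAL1 as a further repressor. The genes are not all driven alike: Cry1 is also repressed by REV-ERB proteins and activated by ROR proteins, Per3 and other genes carry D-boxes bound by DBP, TEF, HLF and NFIL3, and Per1 and Per2 also answer to glucocorticoids and to cAMP.

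The promoters are shown because E-boxes and D-boxes are among the motifs by which the members are usually grouped. RefSeq (GRCm38.p6) windows were matched for 5 of the 6 genes, all but Per2, and the 250 bases before each start are used. Capitals mark matches, on either strand, to the E-box CACGTG, the variant E-box CACGTT (read as AACGTG where it lies on the other strand) and the D-box TTATGTAA. Each line runs 5′ to 3′ on the strand of the gene.
Per1: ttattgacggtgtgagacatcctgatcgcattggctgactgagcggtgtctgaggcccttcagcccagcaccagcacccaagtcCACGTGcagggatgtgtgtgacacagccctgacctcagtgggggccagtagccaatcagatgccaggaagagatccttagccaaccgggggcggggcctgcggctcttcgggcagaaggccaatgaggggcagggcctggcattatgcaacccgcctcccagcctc
Per3: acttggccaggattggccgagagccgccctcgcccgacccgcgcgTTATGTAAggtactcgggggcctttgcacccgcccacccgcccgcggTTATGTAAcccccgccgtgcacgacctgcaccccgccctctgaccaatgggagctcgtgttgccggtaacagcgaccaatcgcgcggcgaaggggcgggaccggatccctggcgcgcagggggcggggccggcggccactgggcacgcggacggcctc
Cry1: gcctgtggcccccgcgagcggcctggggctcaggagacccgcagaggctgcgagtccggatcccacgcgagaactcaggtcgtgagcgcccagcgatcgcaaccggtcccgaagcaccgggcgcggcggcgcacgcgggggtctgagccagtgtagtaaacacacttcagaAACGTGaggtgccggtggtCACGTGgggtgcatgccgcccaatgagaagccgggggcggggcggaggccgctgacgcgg
Cry2: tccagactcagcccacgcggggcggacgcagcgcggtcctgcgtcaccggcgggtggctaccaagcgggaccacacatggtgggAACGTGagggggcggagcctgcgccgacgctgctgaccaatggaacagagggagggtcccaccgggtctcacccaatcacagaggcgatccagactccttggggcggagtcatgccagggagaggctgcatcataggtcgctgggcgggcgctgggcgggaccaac
Ciart: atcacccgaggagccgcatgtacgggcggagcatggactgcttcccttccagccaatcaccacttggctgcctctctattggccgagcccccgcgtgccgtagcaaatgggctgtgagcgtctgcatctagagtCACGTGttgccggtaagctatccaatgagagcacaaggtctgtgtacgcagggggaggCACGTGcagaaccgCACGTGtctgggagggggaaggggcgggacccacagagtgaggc

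The Per1 window (chr11:69098699-69098948, plus strand) has 1 E-box, which begins 166 bases before the start, and its other RefSeq window (chr11:69099902-69100151, plus strand, not shown) has no match. The Per3 window (chr4:151044666-151044915, minus strand) has 2 D-boxes, 205 and 158 bases before the start, and no E-box. The Cry1 window (chr10:85185055-85185304, minus strand) has 1 E-box at 60 bases and 1 variant E-box at 79 bases. The Cry2 window (chr2:92434070-92434319, minus strand) has only a variant E-box, at 166 bases. The Ciart window (chr3:95882229-95882478, minus strand) has 3 E-boxes, at 116, 58 and 44 bases. Of all 32851 RefSeq windows of this length, 6.02% hold an E-box and 0.0609% hold at least 3, 3.85% hold a variant E-box, and 0.819% hold a D-box and 0.0183% at least 2. The cAMP response element TGACGTCA (1.55% of windows) and the REV-ERB and ROR element (RORE, 0.332%) matched in none of the 6 windows, which says only that these letters are absent from these bases. Whether any motif bears on the direction in which a gene changed was not tested.

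Each library held between 25628887 and 38043491 reads counted in genes. Library KO ZT16 replicate 2 stood apart from its own group: mitochondrially encoded genes took 22.3% of its counts against 14.1% and 14.0% in KO ZT16 replicates 4 and 6. A principal component analysis of log2 CPM placed it at 43.0 on the leading axis (46.7% of the variance), among the WT ZT16 libraries (25.1 to 49.0) and away from KO ZT16 replicates 4 and 6 (-9.73 and -11.8). Results are also given without it below. WT ZT16 replicate 5 had a mitochondrial share of 22.4%, against 18.7% and 18.8% in WT ZT16 replicates 1 and 3. Mitochondrial shares also differed between groups, with 12.6% to 12.8% in KO ZT4 and 16.3% to 18.0% in WT ZT4, and their part in the results was not tested. Markers of the kidney segments were present in every group, with summed levels of proximal tubule genes of 7308 to 9677 CPM (reads counted in a gene, scaled to library size with TMM factors) in KO ZT16, 8372 to 9269 CPM in WT ZT16, 9877 to 10085 CPM in KO ZT4 and 9328 to 10282 CPM in WT ZT4. Of 13 cell type lists, the summed marker levels of 3 at ZT16 (endothelium, macrophage and principal cell) were lower in every KO library than in every WT library. At ZT4 this held for 4 (endothelium, macrophage, lymphocyte and thick ascending limb), and 3 were higher in every KO library (distal convoluted tubule, intercalated cell and podocyte). Some of these gaps were very narrow. Distal convoluted tubule markers at ZT4 summed to at least 646.3 CPM in KO and at most 645.9 CPM in WT. Principal cell markers at ZT16 summed to at most 280.8 CPM in KO and at least 282.5 CPM in WT. For single genes, KO and WT values did not overlap for 15.9% of all tested genes at ZT16 and for 37.7% at ZT4. A sum rests mostly on the most abundant markers of its list. Over the genes of a list, the median log2 fold change, KO over WT, was 0.0076 at ZT16 and -0.037 at ZT4 for endothelium. The median was -0.055 at ZT4 for thick ascending limb, and -0.22 at ZT16 and -0.33 at ZT4 for macrophage. Endothelial markers summed to 287.2 to 309.9 CPM in KO against 316.01 to 331.5 CPM in WT at ZT16, and to 304.0 to 323.2 CPM in KO against 335.1 to 357.9 CPM in WT at ZT4. Thick ascending limb markers at ZT4 summed to 4341 to 4481 CPM in KO against 5273 to 5860 CPM in WT. Macrophage markers summed to less in the KO libraries at both times, 85.5 to 96.1 CPM against 103.8 to 114.7 CPM in WT at ZT16 and 90.3 to 98.8 CPM against 107.6 to 137.0 CPM in WT at ZT4. The part of these markers in the results was not tested. Arntl RNA, counted over all exons and all cell types, does not check the labels: it had 12.3 to 15.01 CPM in KO ZT16, 8.63 to 11.03 CPM in WT ZT16, 14.4 to 16.2 CPM in KO ZT4 and 13.8 to 20.0 CPM in WT ZT4. Adjusted p is that of edgeR's quasi-likelihood test with Benjamini-Hochberg adjustment over the 16150 genes tested, 3 libraries against 3, and a gene is called, and said to rise or fall, where it is under 0.05. The log2 fold change of Arntl, KO over WT, was 0.43 ± 0.15 (SE) at ZT16 (adjusted p = 0.151) and -0.079 ± 0.14 at ZT4 (adjusted p = 0.777). Without KO ZT16 replicate 2 the deleted gene was called higher in KO at ZT16 (0.49, adjusted p = 0.0240), so the directions given below depend on KO and WT being labelled correctly.

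Among the Period genes, Per2 and Per3 were changed in knockout kidneys at ZT4, in opposite directions, and Per1 passed no test. Per1 (ENSMUSG00000020893, chr11:69095217-69109960, plus strand, GRCm38) encodes a Period protein whose gene is induced rapidly by light in the brain clock. It had 7.80, 17.6 and 17.8 CPM in KO ZT16 replicates 2, 4 and 6, against 25.8, 18.7 and 17.9 CPM in WT ZT16 replicates 1, 3 and 5. At ZT4 it had 10.6, 12.0 and 14.6 CPM in KO replicates 2, 4 and 6, against 10.2, 10.2 and 20.7 CPM in WT replicates 1, 3 and 5. At ZT16 every KO library lay below every WT library (17.8 CPM at most against 17.9 CPM at least), with KO replicate 2 well below the rest. At ZT4 the genotypes overlapped, and WT replicate 5 was higher than any KO library. The log2 fold change of Per1, KO over WT, was -0.53 ± 0.32 (SE) at ZT16 (95% interval -1.23 to 0.18, adjusted p = 0.470) and -0.15 ± 0.33 at ZT4 (-0.86 to 0.56, adjusted p = 0.823), and neither was called. Without KO ZT16 replicate 2 the ZT16 value was -0.24, and at ZT4 the sign turned when WT ZT4 replicate 5 was left out (0.28) and under scaling by plain totals (0.028).

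Per2 (ENSMUSG00000055866, chr1:91415982-91459324, minus strand) encodes a core Period protein that scaffolds the repressor complex. It had 33.2, 59.2 and 50.0 CPM in KO ZT16 replicates 2, 4 and 6, against 56.1, 53.5 and 57.2 CPM in WT ZT16 replicates 1, 3 and 5. At ZT4 it had 21.1, 21.3 and 24.5 CPM in KO, against 8.18, 9.96 and 11.1 CPM in WT. The genotypes overlapped at ZT16, where KO replicate 2 was the lowest and KO replicate 4 the highest of the 6 libraries, and they were well apart at ZT4, where the lowest KO library had more Per2 than any WT library. Per2 rose 2.29-fold in knockout kidneys at ZT4 (log2 fold change 1.195 ± 0.18, adjusted p = 0.00298). At ZT16 its log2 fold change was -0.23 ± 0.17 (95% interval -0.60 to 0.14, adjusted p = 0.563), and -0.036 without KO ZT16 replicate 2. In whole kidney RNA, a change in the number of cells of a type and a change in RNA per cell cannot be told apart.

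Per3 (ENSMUSG00000028957, chr4:151003652-151044665, minus strand), whose promoter holds the pair of D-boxes above, was the Period gene that fell at both times. It had 18.1, 16.1 and 14.6 CPM in KO ZT16, against 31.2, 34.7 and 33.5 CPM in WT ZT16. At ZT4 it had 7.66, 8.997 and 10.01 CPM in KO, against 16.6, 19.7 and 23.3 CPM in WT. No KO library reached the lowest WT library of its own time, and KO ZT16 libraries overlapped WT ZT4 libraries only through KO replicate 2. The log2 fold change was -1.03 ± 0.13 at ZT16 (adjusted p = 0.000766) and -1.17 ± 0.14 at ZT4 (adjusted p = 0.000507), and both calls held in each of the 16 alternatives run.

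**Figure D1:**
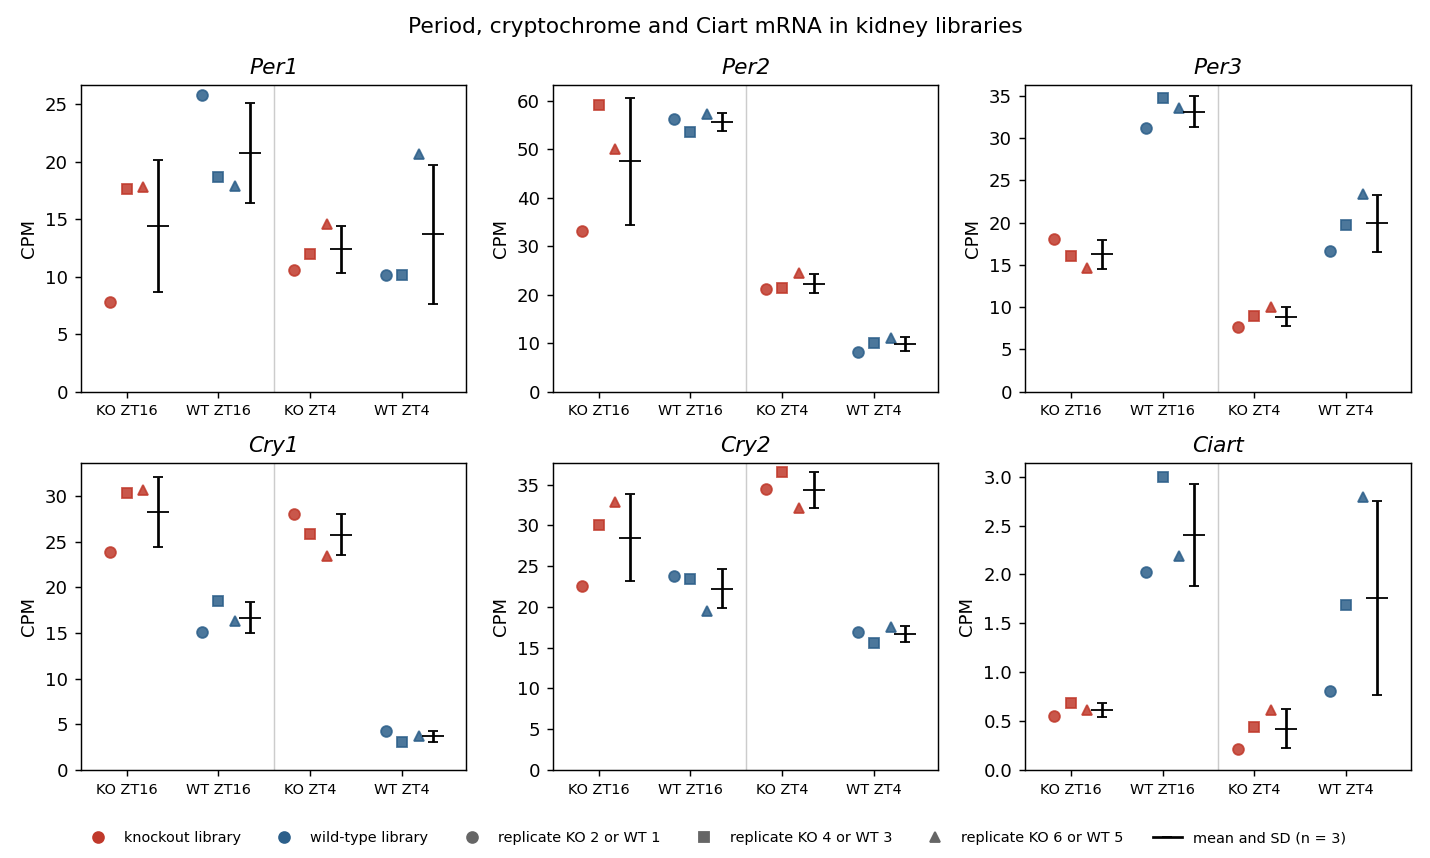
CPM (TMM scaled) of each of the 6 genes on a linear axis from 0, by group on the horizontal axis, with 1 symbol per library and black bars for mean and SD (n = 3). Per3 and Ciart lie lower in KO (red) than in WT (blue) at both times, Cry1 lies higher in KO at both times, and Cry1 and Per2 in WT ZT4 reach only 4.27 and 11.1 CPM.

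Both cryptochrome genes rose in knockout kidneys at ZT4, and Cry1 rose at ZT16 as well. Cry1 (ENSMUSG00000020038, chr10:85131700-85185064, minus strand) encodes the stronger of the cryptochrome repressors, and its RNA normally peaks later than that of the Per genes. It had 23.8, 30.3 and 30.6 CPM in KO ZT16, against 15.2, 18.5 and 16.3 CPM in WT ZT16. At ZT4 it had 28.0, 25.9 and 23.4 CPM in KO, against 4.27, 3.01 and 3.74 CPM in WT. All 6 KO libraries lay above all 6 WT libraries, and the KO libraries of the times overlapped each other. Cry1 rose 6.98-fold at ZT4 (log2 fold change 2.80 ± 0.15, adjusted p = 2.04e-06) and 1.70-fold at ZT16 (0.76 ± 0.13, adjusted p = 0.00619). The ZT16 call was lost when only those 6 libraries were fitted (0.77, adjusted p = 0.0543).

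Cry2 (ENSMUSG00000068742, chr2:92403646-92434043, minus strand) encodes the second cryptochrome, whose RNA usually cycles weakly. It had 22.6, 30.01 and 32.9 CPM in KO ZT16, against 23.7, 23.5 and 19.5 CPM in WT ZT16. At ZT4 it had 34.4, 36.5 and 32.1 CPM in KO, against 16.9, 15.6 and 17.5 CPM in WT. The genotypes were far apart at ZT4, while at ZT16 KO replicate 2 fell within the WT libraries and the other KO libraries lay above them. Cry2 rose 2.06-fold in knockout kidneys at ZT4 (log2 fold change 1.04 ± 0.13, adjusted p = 0.000847). At ZT16 the log2 fold change was 0.36 ± 0.13 (95% interval 0.073 to 0.64, adjusted p = 0.186), and it was called without KO ZT16 replicate 2 (0.49, adjusted p = 0.00288). Cry2 shares 295 exonic bases (4.67% of its length) with D930015M05Rik on the opposite strand, which had at most 21 counts in a library.

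Ciart (ENSMUSG00000038550, chr3:95878503-95882251, minus strand), whose promoter holds 3 E-boxes, was the least abundant of the 6 genes and fell in knockout kidneys at both times. It had 0.547, 0.686 and 0.615 CPM in KO ZT16, against 2.03, 2.999 and 2.18 CPM in WT ZT16. At ZT4 it had 0.211, 0.439 and 0.613 CPM in KO, against 0.807, 1.69 and 2.79 CPM in WT. No KO library reached any WT library, but the WT ZT4 libraries spread widely, and the lowest KO value rests on 8 counts (exact binomial 95% interval 0.0912 to 0.416 CPM, counting error only). Ciart was 3.88-fold lower at ZT16 (log2 fold change -1.96 ± 0.41, adjusted p = 0.0188) and 4.25-fold lower at ZT4 (-2.09 ± 0.44, adjusted p = 0.0233). These calls depended on single libraries. At ZT16 the call was lost without KO replicate 4 (-2.05, adjusted p = 0.0609), KO replicate 6 (-1.95, adjusted p = 0.0683) or WT replicate 3 (-1.77, adjusted p = 0.0810), with adjusted p from 0.000312 to 0.0810 over its alternatives. At ZT4 it was lost without KO replicate 2 (-1.76, adjusted p = 0.107), KO replicate 4 (-2.15, adjusted p = 0.0965), WT replicate 3 (-2.12, adjusted p = 0.0721) or WT replicate 5 (-1.57, adjusted p = 0.0826), with adjusted p from 0.000169 to 0.107.

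The first comparison set KO against WT libraries for these genes in the dark and in the light. Where transgenes or doxycycline differed between KO and WT mice, their effects cannot be told apart from those of losing BMAL1. At ZT16, 3 of the 6 repressor genes were called, 1 higher (Cry1) and 2 lower (Per3 and Ciart), where 4.03% of all tested genes were called, 2.07% higher and 1.96% lower. At ZT4, 5 of the 6 were called, 3 higher (Per2, Cry1 and Cry2) and 2 lower (Per3 and Ciart), where 3.29% of all tested genes were called, 1.63% higher and 1.66% lower. Library values of KO and WT did not overlap for 4 of the 6 genes at ZT16 (15.9% of all genes) and for 5 of the 6 at ZT4 (37.7%). The median log2 fold change of the 6 genes was -0.38 at ZT16 (0.017 over all genes) and 0.45 at ZT4 (0.0022 over all genes), with members on both sides of 0 at each time. Without KO ZT16 replicate 2, 4 of the 6 were called at ZT16 and 5 at ZT4, but so were 5099 and 2503 genes in all, against 651 and 531 with it.

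**Figure D2:**
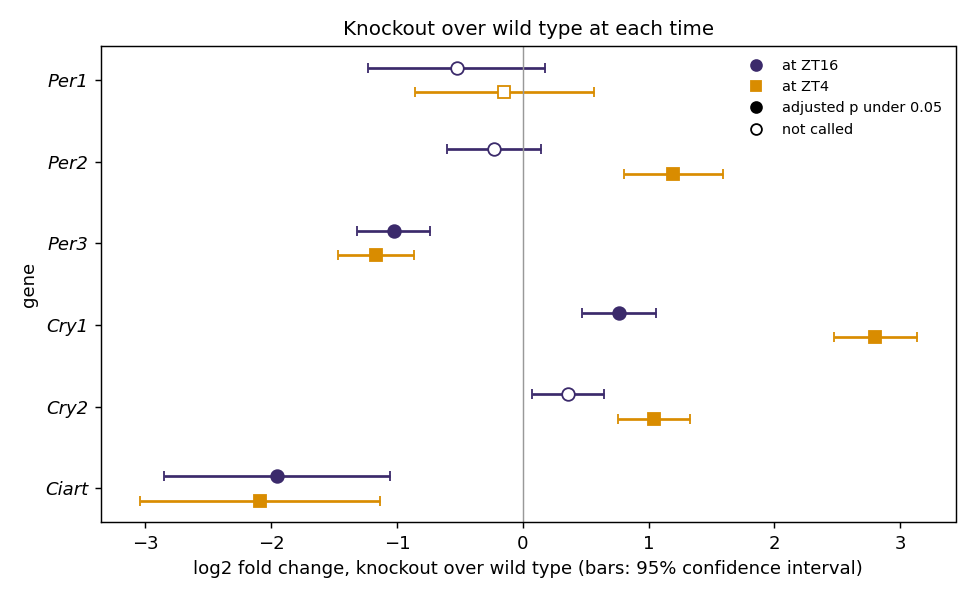
Log2 fold change, KO over WT, of each gene (rows) at ZT16 (purple circles) and ZT4 (orange squares), with 95% confidence intervals as bars and filled symbols where adjusted p was under 0.05. Cry1 is the furthest right at ZT4 (2.80), Per3 and Ciart are left of 0 at both times, and the values of Per2 and Cry2 at ZT16 (-0.23 and 0.36) are open symbols.

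ZT16 was compared with ZT4 within each genotype to ask how far the repressor genes still differ between night and day. In knockout kidneys 2 of the 6 genes were called, both higher at ZT16 (Per2 and Per3), where 10.5% of all tested genes were called and 5.27% were higher. In wild-type kidneys 3 of the 6 were called, all higher at ZT16 (Per2, Per3 and Cry1), where 6.5% of all tested genes were called and 2.87% were higher. Values of the times did not overlap for 2 of the 6 genes in KO (43.3% of all genes) and for 4 in WT (42.6%). The median log2 fold change of the 6 genes was 0.40 in KO and 0.67 in WT, against -0.0083 and -0.0090 over all genes.

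Per2 was higher at ZT16 in both genotypes, 2.13-fold in KO (log2 fold change 1.09 ± 0.17, adjusted p = 0.00742) and 5.71-fold in WT (2.51 ± 0.19, adjusted p = 3.26e-05). Per3 was higher at ZT16 by 1.83-fold in KO (0.87 ± 0.14, adjusted p = 0.00710) and 1.66-fold in WT (0.73 ± 0.13, adjusted p = 0.00991). Both KO calls were lost when only the 6 KO libraries were fitted (Per2 1.09, adjusted p = 0.0737, and Per3 0.87, adjusted p = 0.0591) and held without KO ZT16 replicate 2 (1.29 and 0.79). Cry1 was at 0.13 ± 0.13 in KO (95% interval -0.16 to 0.42, adjusted p = 0.482), with a sign that turned under scaling by plain totals or by totals without mitochondrial genes, and was 4.51-fold higher at ZT16 in WT (2.17 ± 0.15, adjusted p = 2.57e-05). Cry2 was at -0.27 ± 0.13 in KO (-0.55 to 0.012, adjusted p = 0.152) and at 0.41 ± 0.13 in WT (adjusted p = 0.0755), where all ZT16 libraries lay above all ZT4 libraries. That WT value was called without KO ZT16 replicate 2 (0.42, adjusted p = 0.00394) and by DESeq2 (0.42, adjusted p = 0.0375). Per1 (0.22 ± 0.33 in KO and 0.60 ± 0.32 in WT, adjusted p = 0.641 and 0.225) and Ciart (0.59 ± 0.50 and 0.46 ± 0.36, adjusted p = 0.407 and 0.400) were called in neither genotype, and their library values overlapped between the times.

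**Figure D3:**
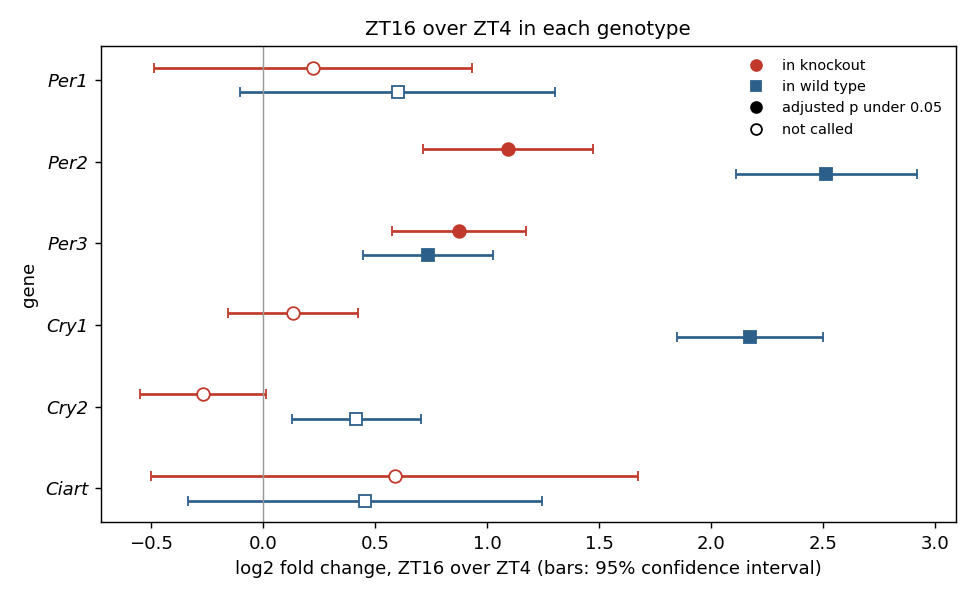
Log2 fold change, ZT16 over ZT4, of each gene (rows) in KO (red circles) and WT (blue squares), with 95% confidence intervals as bars and filled symbols where adjusted p was under 0.05. Per2 and Cry1 lie at 1.09 and 0.13 in KO and at 2.51 and 2.17 in WT, while the intervals of Per3 overlap.

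Whether the knockout effect itself differed between the times was tested as an interaction, the effect at ZT16 minus the effect at ZT4. Cry1 was the only one of the 6 genes called, with a smaller effect at ZT16 (log2 difference -2.04 ± 0.20, adjusted p = 0.00134), where 0.0186% of all tested genes, 3 in number, were called and 0.0124% were lower. With the replicate number as a block, which the labels do not establish as a pairing, its value was -2.05 (adjusted p = 0.122). Per2 had a difference of -1.42 ± 0.25 (adjusted p = 0.245, unadjusted p = 9.11e-05), which was called by DESeq2 (-1.41, adjusted p = 0.000595), without KO ZT16 replicate 2 (-1.23, adjusted p = 0.00424) and without KO ZT16 replicate 4 (-1.61, adjusted p = 0.0459). Cry2 had -0.68 ± 0.19 (unadjusted p = 0.00299), which was not called after adjustment. Per1 (-0.38 ± 0.46), Per3 (0.14 ± 0.19) and Ciart (0.13 ± 0.61) were not called. The 95% interval of that difference was -0.28 to 0.55 for Per3 and wider, -1.19 to 1.45, for Ciart.

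The order of the 4 groups differed from gene to gene. Per1 averaged 14.4 ± 5.73 CPM in KO ZT16, 20.8 ± 4.35 in WT ZT16, 12.4 ± 2.03 in KO ZT4 and 13.7 ± 6.07 in WT ZT4 (SD, n = 3 each). WT ZT16 was the highest on average and lay just above KO ZT16, but it overlapped WT ZT4, and the other groups overlapped in turn. Per2 averaged 47.5 ± 13.2 CPM in KO ZT16, 55.6 ± 1.89 in WT ZT16, 22.3 ± 1.88 in KO ZT4 and 9.73 ± 1.45 in WT ZT4. Its ZT16 groups overlapped at the top, followed without overlap by KO ZT4 and then WT ZT4. Per3 averaged 16.2 ± 1.75 CPM in KO ZT16, 33.1 ± 1.79 in WT ZT16, 8.89 ± 1.18 in KO ZT4 and 19.9 ± 3.36 in WT ZT4. WT ZT16 stood clear at the top and KO ZT4 clear at the bottom, with KO ZT16 and WT ZT4 overlapping between them.

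Cry1 averaged 28.3 ± 3.86 CPM in KO ZT16, 16.6 ± 1.70 in WT ZT16, 25.8 ± 2.27 in KO ZT4 and 3.67 ± 0.635 in WT ZT4. The KO groups overlapped at the top, followed without overlap by WT ZT16 and then WT ZT4. Cry2 averaged 28.5 ± 5.33 CPM in KO ZT16, 22.2 ± 2.38 in WT ZT16, 34.4 ± 2.23 in KO ZT4 and 16.7 ± 0.974 in WT ZT4. From KO ZT4 at the top through KO ZT16 to WT ZT16 each group overlapped the next, and only WT ZT4 stood clear. Ciart averaged 0.616 ± 0.0693 CPM in KO ZT16, 2.40 ± 0.521 in WT ZT16, 0.421 ± 0.201 in KO ZT4 and 1.76 ± 0.993 in WT ZT4, so that both KO groups overlapped each other below both WT groups. The highest group mean was 7.70 times the lowest for Cry1, 5.71 times for Per2 and for Ciart, 3.73 times for Per3, 2.06 times for Cry2 and 1.68 times for Per1.

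Levels per exon length (CPM per kb of annotated exons) let the genes be set against each other. In KO ZT16, Cry1 (8.46 ± 1.16) and Per2 (8.10 ± 2.25) were the highest of the 6, while in WT ZT16 Per2 was alone at the top (9.49 ± 0.322), ahead of Cry1 (4.98 ± 0.509). In KO ZT4 Cry1 (7.71 ± 0.681) and Cry2 (5.44 ± 0.352) led, while in WT ZT4 Cry1 (1.10 ± 0.190) was on average below every member except Ciart (0.779 ± 0.439). Cry1 over Cry2 was 1.89 ± 0.119 in KO ZT16 against 1.43 ± 0.194 in WT ZT16, and 1.42 ± 0.105 in KO ZT4 against 0.415 ± 0.0571 in WT ZT4. Thus Cry1 RNA outweighed Cry2 RNA per length in every library except those of WT ZT4, where the ratio was 0.365 to 0.477.

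Summed over Per1, Per2 and Per3, the level per kb was 12.4 ± 3.08 in KO ZT16 against 16.6 ± 0.695 in WT ZT16, and 6.93 ± 0.789 in KO ZT4 against 6.16 ± 1.61 in WT ZT4. At ZT4 the sums of KO (6.29 to 7.81) fell within the range of WT (4.93 to 7.99), although Per2 and Per3 each differed, and at ZT16 all KO sums (8.94 to 14.9) lay below all WT sums (16.1 to 17.4). The share of Per3 in that sum was 11.2% to 21.0% in KO ZT16 against 18.6% to 22.5% in WT ZT16, and 12.7% to 14.0% in KO ZT4 against 30.4% to 36.9% in WT ZT4. The cryptochrome sum was 13.0 ± 1.99 per kb in KO ZT16 against 8.499 ± 0.671 in WT ZT16, and 13.15 ± 0.923 in KO ZT4 against 3.74 ± 0.322 in WT ZT4. KO libraries had the higher cryptochrome sum at both times with no overlap, and the KO sums of the times overlapped each other. These sums and ratios are given as descriptions of RNA, and no test was run on them.

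**Figure D4:**
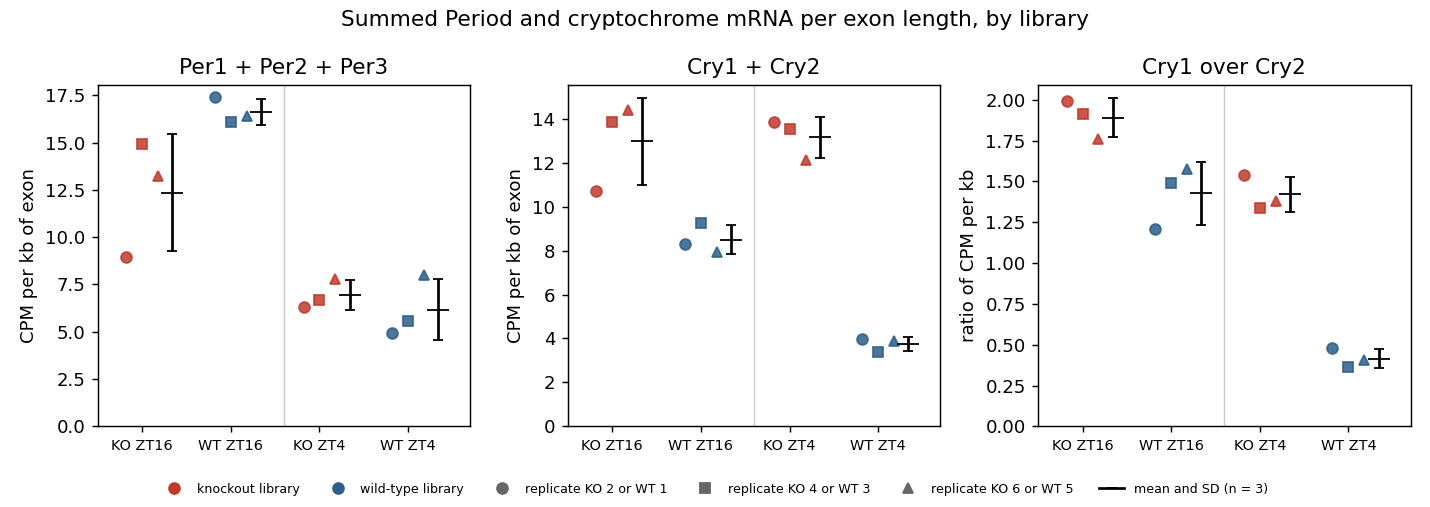
Summed level of the Period genes, summed level of the cryptochrome genes (both in CPM per kb of exon) and the ratio of Cry1 to Cry2 per kb, by group on the horizontal axis, with 1 symbol per library and black bars for mean and SD (n = 3). Period sums at ZT4 overlap between KO and WT (means 6.93 and 6.16), while cryptochrome sums are 13.15 in KO ZT4 against 3.74 in WT ZT4.

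The genes whose profile over the 12 libraries was closest to each member were found by the root mean square difference of centred log2 CPM, among 10404 protein-coding genes averaging 5 CPM or more. Of these, those closest to Cry1 were Nfil3, which encodes a repressor that binds D-boxes (0.56, where Cry1 itself varied by 1.19 about its mean), Arg2, a mitochondrial arginase gene (0.67), and Ugt1a10, a glucuronosyltransferase gene (0.71). Nfil3 had 17.0, 22.5 and 22.5 CPM in KO ZT16, against 11.9, 12.5 and 25.04 CPM in WT ZT16. At ZT4 Nfil3 had 16.5, 18.9 and 21.8 CPM in KO, against 7.62, 5.19 and 5.45 CPM in WT. As for Cry1, WT ZT4 was the lowest group, a likeness for which the search over these libraries selected. Nfil3 overlapped between genotypes at ZT16, where Cry1 did not. Nfil3 was 2.70-fold higher at ZT16 in WT (log2 fold change 1.43 ± 0.27, adjusted p = 0.0117) and was at 0.12 ± 0.25 in KO (adjusted p = 0.755), and its interaction was not called (-1.31 ± 0.37, unadjusted p = 0.00380).

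The closest to Per2 were Tsc22d3, a glucocorticoid-induced leucine zipper gene (0.46, against 1.01 for Per2 about its mean), Pck1, a gluconeogenic enzyme gene (0.49), and Banp (0.49). The closest to Per3 were Cyp2e1, a cytochrome P450 gene, Coq10b and Ttpa, the α-tocopherol transfer protein gene (0.28 for each, against 0.69). The closest to Cry2 were Nccrp1 (0.16), Hoxd3 (0.17) and Slc45a3 (0.18), against 0.41 for Cry2 itself. The closest to Ciart were Serpina1d (0.54), Nr1d2, which encodes REV-ERBβ (0.55), and Dnase1 (0.55), against 1.07. Per1 varied too little between groups (0.73 on the log2 scale) for neighbours to be named. Within the 6 genes the nearest pair was Per3 and Ciart (0.53), and Per2 and Cry1 were 0.78 apart. Exons of Arg2 (20.0% of its length, with Vti1b), Dnase1 (16.3%, with Gm15879) and Hoxd3 (8.28%, with Hoxd3os1) overlap genes on the opposite strand, Serpina1d has close paralogs, and Ugt1a10 shares 58.1% of its length with Ugt1a8 on the same strand, so reads of these genes may be split.

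**Figure D5:**
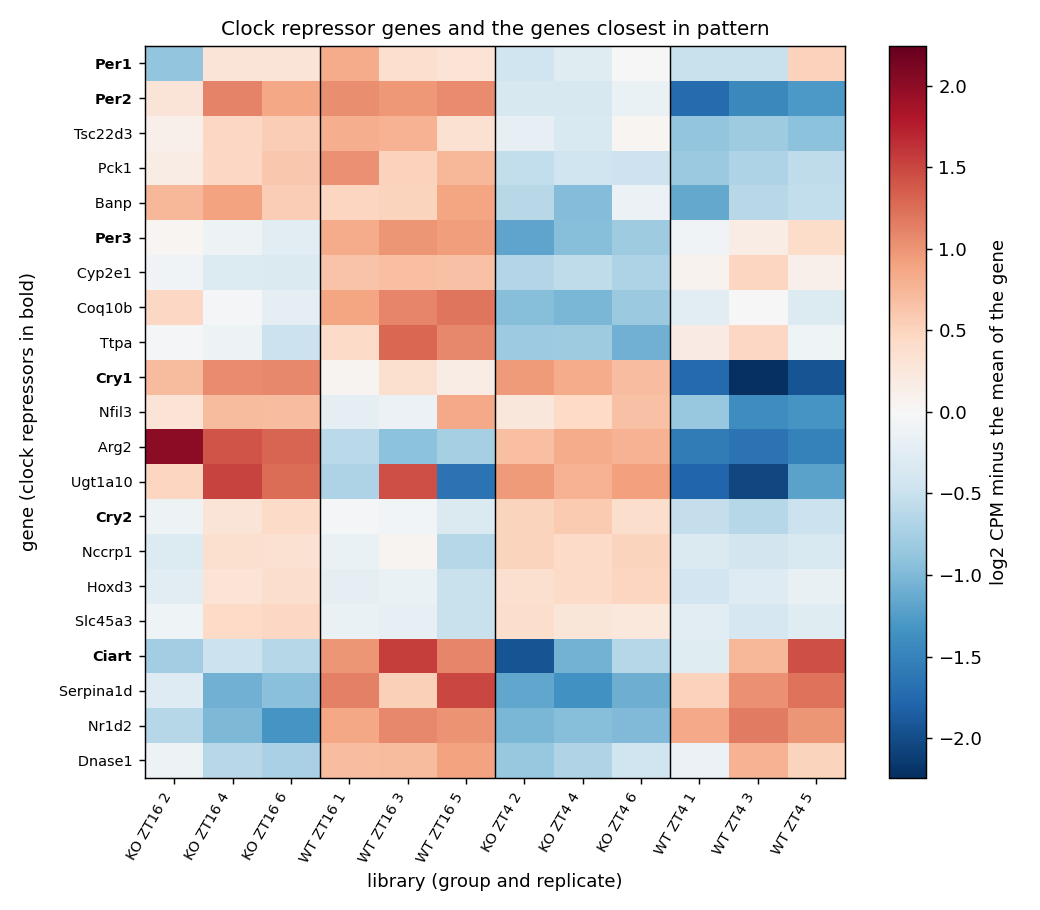
Log2 CPM minus the mean of the gene (colour scale, red above and blue below) in each of the 12 libraries (columns, by group and replicate) for the 6 genes (bold) and the 3 genes closest to each of 5 of them. Cry1 and Nfil3 are above their means in all KO libraries and lowest in WT ZT4, while Per3 and Ciart are lowest in KO ZT4.

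Other parts of the clock loop were read from lists of textbook members. The counts of each list below stand beside these shares of all tested genes. Between genotypes, 2.07% were called higher and 1.96% lower at ZT16, and 1.63% higher and 1.66% lower at ZT4. Between the times, 10.5% were called in KO and 6.5% in WT. Of Nr1d1, Nr1d2, Rora and Rorb, whose proteins act on RORE sites, 0 rose and 2 fell in knockout kidneys at each time, with a median of -0.85 at ZT16 and -1.30 at ZT4 (0.017 and 0.0022 over all tested genes). Nr1d1, which encodes REV-ERBα, averaged 4.73 ± 0.425 CPM in KO ZT16 against 9.27 ± 1.51 CPM in WT ZT16 (log2 fold change -0.97 ± 0.17, adjusted p = 0.00561). At ZT4 Nr1d1 averaged 16.2 ± 2.82 CPM in KO against 60.1 ± 8.49 CPM in WT (-1.89 ± 0.15, adjusted p = 2.80e-05), with 8.55% of its exon length overlapping Thra on the opposite strand. Nr1d2 fell by 1.96 at ZT16 and by 2.00 at ZT4 on the log2 scale (adjusted p = 1.20e-05 and 1.46e-05). Against WT libraries of the same time, knockout libraries had lower Nr1d1 and Nr1d2 with higher Cry1. They also had higher Npas2, a relative of Clock (log2 fold change 3.51 ± 0.19 at ZT16, adjusted p = 1.39e-06, and 2.21 ± 0.17 at ZT4, adjusted p = 2.14e-05). Across the times, mean Nr1d1 was higher in KO ZT4 (16.2 CPM) than in WT ZT16 (9.27 CPM), and so was Cry1 (25.8 against 16.6 CPM). Within KO, Nr1d1 was lower at ZT16 than at ZT4 (-1.77, adjusted p = 0.000469), while Cry1 (0.13) and Nr1d2 (0.026) were not called. Nr1d2 was lower in every KO library than in every WT library. Whether Nr1d1 or Nr1d2 acted on Cry1 was not tested. Of the positive limb (4 genes: Arntl, Arntl2, Clock and Npas2), 2 rose at ZT16 (Npas2 and Clock) and 1 at ZT4 (Npas2), with medians of 0.41 and 0.20. The ZT16 call of Clock (0.39, adjusted p = 0.0229) was lost in 4 of 16 alternatives, and the count at ZT16 ranged from 1 to 3 as single libraries were left out.

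Of the D-box factors (Dbp, Tef, Hlf and Nfil3), 2 fell at ZT16, and at ZT4 2 fell and 1 rose, with list medians of -0.33 and 0.026, the ZT4 call of Tef (-0.39, adjusted p = 0.0423) being lost in 11 of 16 alternatives. Dbp averaged 7.95 ± 1.89 CPM in KO ZT16 against 21.8 ± 1.25 CPM in WT ZT16 (log2 fold change -1.45 ± 0.20, adjusted p = 0.00115). At ZT4 Dbp averaged 9.70 ± 2.36 CPM in KO against 28.6 ± 4.55 CPM in WT (-1.56 ± 0.20, adjusted p = 0.000847), though 18.0% of its exon length overlaps Sphk2 on the opposite strand. Dbp and Per3 were both lower in every KO library than in every WT library of the same time. Between the times Dbp was not called and was lower at ZT16 (-0.28 in KO and -0.39 in WT), where Per3 was higher. Hlf went the other way at ZT4, higher in every KO library (0.44 ± 0.12, adjusted p = 0.0644), and was at -0.054 at ZT16. DESeq2 called 2 of the 4 D-box factors at ZT16 and 4 at ZT4. Nfil3 averaged 20.7 ± 3.16 CPM in KO ZT16 against 16.5 ± 7.40 CPM in WT ZT16 (0.33 ± 0.25, adjusted p = 0.573), and 19.1 ± 2.63 CPM in KO ZT4 against 6.09 ± 1.33 CPM in WT ZT4 (1.64 ± 0.27, adjusted p = 0.00508).

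Genes for proteins that bind, modify or degrade PER and CRY were mostly uncalled. Of 13 such genes, among them the casein kinase genes Csnk1d and Csnk1e and the ubiquitin ligase genes Btrc and Fbxw11, edgeR called 0 at ZT16 (3 at an unadjusted p under 0.05, 1 by DESeq2) and 0 at ZT4 (2 at an unadjusted p under 0.05, 0 by DESeq2). Their median log2 fold change was 0.031 at ZT16 and 0.16 at ZT4, and up to 5 and 4 of them were called when a single library was left out. Of the other repressors (Bhlhe40, Bhlhe41 and Cipc), 0 were called at either time by edgeR or DESeq2 (1 at ZT16 and 0 at ZT4 at an unadjusted p under 0.05), with medians of -0.27 and 0.0077. Between the times, 2 of the 13 were called in KO, both lower at ZT16 (Btrc and Prkaa2), and 2 in WT, with Usp2 higher and Btrc lower, and these counts ranged from 0 to 4 in each genotype as single libraries were left out. Their medians were -0.21 in KO and -0.14 in WT, and protein levels were not measured. Of the 3 other repressors, 0 were called between the times in KO and 1 in WT. That gene was Bhlhe40, higher at ZT16 in WT (0.98 ± 0.21, adjusted p = 0.0191, lost in 5 of 17 alternatives). In KO Bhlhe40 was at 0.18 ± 0.20 (adjusted p = 0.539).

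Genes that share the glucocorticoid and cAMP inputs of Per1 and Per2 were read in the same way. Of 6 glucocorticoid-induced genes, 4 rose at ZT16 relative to ZT4 in KO (median log2 fold change 0.64) and 3 in WT (median 1.04, with -0.0083 and -0.0090 over all genes), with 0 to 4 called in KO and 3 to 5 in WT as single libraries were left out. Of all tested genes, 5.27% were called higher at ZT16 in KO and 2.87% in WT. Klf9 of this list went the other way and was not called (-0.26 ± 0.15 in KO, adjusted p = 0.218, and -0.28 ± 0.15 in WT, adjusted p = 0.220). Tsc22d3 was higher at ZT16 by 0.54 ± 0.15 in KO (adjusted p = 0.0402, lost in 12 of 17 alternatives) and by 1.53 ± 0.15 in WT (adjusted p = 0.000247), and Fkbp5 by 0.81 ± 0.14 in KO (adjusted p = 0.0109) and 0.85 ± 0.14 in WT (adjusted p = 0.00736). Between genotypes, edgeR called 0 of the 6 at ZT16 (1 at an unadjusted p under 0.05, 0 by DESeq2) and 1 at ZT4 (Tsc22d3, 0.72 ± 0.15, adjusted p = 0.0210), with medians of -0.13 and 0.11. Tsc22d3, the nearest gene to Per2, had 71.6, 91.5 and 97.4 CPM in KO ZT16, against 116.4, 114.3 and 84.5 CPM in WT ZT16, and 58.3, 52.4 and 68.6 CPM in KO ZT4, against 35.9, 38.2 and 35.1 CPM in WT ZT4. Like Per2, it overlapped between genotypes at ZT16 and was higher in every KO library at ZT4, but its ZT4 call was lost in 5 of 16 alternatives. Because Tsc22d3 was found as nearest to Per2 over these same libraries, this likeness is no separate support.

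Of 6 immediate early genes that answer to cAMP and serum signals (Fos, Fosb, Egr1, Nr4a1, Junb and Sik1), 1 was called between genotypes at ZT16, Sik1, which was lower in KO (-0.98 ± 0.19, adjusted p = 0.00935). At ZT16 5 of the 6 had an unadjusted p under 0.05, DESeq2 called 3, and 1 to 4 were called as single libraries were left out. At ZT4 0 were called between genotypes by edgeR or DESeq2 (0 at an unadjusted p under 0.05), and the list medians were -1.20 at ZT16 and 0.50 at ZT4. Between the times, 0 were called in KO by edgeR or DESeq2 (0 at an unadjusted p under 0.05) and 2 in WT (Fos 1.78 ± 0.45, adjusted p = 0.0392, and Junb 1.31 ± 0.29, adjusted p = 0.0232), with medians of -0.33 and 1.59. In WT 5 had an unadjusted p under 0.05, DESeq2 called 5, and the calls ranged from 0 to 5 as single libraries were left out. In the interaction all 6 had an unadjusted p under 0.05 (list median -1.98), and 0 were called by edgeR or DESeq2. Per1 was not called in any of these comparisons.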

How the data were processed

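Poly(A) RNA of 12 whole-kidney samples was sequenced from 500 ng of total RNA with stranded libraries, per the labels' protocols. Per the submitters' processing notes, the authors used cutadapt 1.2.1, TopHat2 2.0.9 with GRCm38 and HTSeq 0.5.4p3, besides edgeR and limma in R 3.1.1, and deposited unnormalized gene counts. Which strand, overlap mode and gene annotation HTSeq was given is not stated in these sources.

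GENCODE M21 named 37607 of the 38924 gene IDs and gave exon lengths. Unassigned reads were left out, namely those outside genes (3.50% to 5.96% of a library), those in several genes (0.411% to 0.534%) and those with several alignments (30.8% to 43.0%). Genes passing filterByExpr (16150) entered edgeR 4.0.16 (TMM, quasi-likelihood, R 4.3.3), in 1 fit of 4 groups (8 residual degrees of freedom), with Benjamini-Hochberg adjustment over all of them. The pipeline was tested on simulated data. CPM used TMM library sizes, and log2 CPM a prior count of 2. Errors are SE for fold changes and SD over 3 libraries for levels. Ciart had 8 to 107 counts per library and the other members at least 80.

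The members and gene lists were chosen with earlier results of these data known. Named genes are the 6 members, Arntl, the genes of the lists, and, for members whose group means differ by at least 1 on the log2 scale, the 3 nearest genes in pattern; withheld genes are not reported here and were left out of the lists and of the search for near patterns. Alternatives were RLE scaling, plain totals, totals without mitochondrial genes, no filter, DESeq2 1.42.0, only the 6 libraries compared, a replicate block, and leaving out each library.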

Additional observations from a re-analysis of the deposited data

Results flagged for a closer look

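The effect of the knockout on Cry1 differed between the times by the test of the difference itself: its log2 fold change at ZT16 minus that at ZT4 was -2.04 (adjusted p = 0.00134, edgeR quasi-likelihood test), from 0.76 at ZT16 and 2.80 at ZT4, with all KO libraries above all WT libraries at both times.

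Of the genes named here, Cry1 was the only one for which edgeR called the difference. DESeq2 called it for 2 of the 6 members, 1 of the 4 positive limb genes and 1 of the 6 glucocorticoid-induced genes. By edgeR, uncalled differences were 1.30 for Npas2 (unadjusted p = 0.000217, adjusted p = 0.456) and -0.99 for Tsc22d3 (unadjusted p = 0.000425, adjusted p = 0.528). Nr1d1 was at 0.93 (unadjusted p = 0.00141, adjusted p = 0.846).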

How the results depend on the processing

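Of 492 recomputed member fold changes, 471 kept their direction and side of the threshold, 11 lost the call, 7 gained it and 3 turned sign. Per3 at both times and Cry1, Cry2 and Per2 at ZT4 kept their call between genotypes in each of the 16 alternative fits; the scalings by plain totals and by totals without mitochondrial genes gave levels only, with no test. DESeq2 called 986 genes between genotypes at ZT16, 1036 at ZT4, 3633 between the times in KO, 2102 in WT and 17 for the interaction (2 of them members), with Cry2 in WT at 0.42 and Per2 in the interaction at -1.41 gained. Fits of only the 6 libraries compared called 200, 2877, 36 and 3557, lost Cry1 at ZT16 (0.77) and both members between the times in KO (0 called, Per2 1.09, Per3 0.87) and gained Cry2 in WT (0.41). Whether the replicate number marks a pairing is not known, and KO and WT share no number. Deviations of same-numbered libraries from their group means had correlations of -0.0081, -0.051 and -0.0029 in KO and 0.054, -0.068 and -0.27 in WT. Differently numbered libraries had -0.078 to 0.091 in KO and -0.19 to 0.22 in WT. With 3 libraries in a group, these values cannot exclude a pairing. With that replicate block 189 genes were called between the times in KO, 229 in WT and 1 for the interaction, which then held 0 members (Cry1 -2.05).

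Leaving out 1 library at a time moved the counts to 380 to 5099 at ZT16, 228 to 2503 at ZT4, 181 to 3629 in KO, 220 to 5473 in WT and 3 to 8 for the interaction, and the members called to 2 to 4, 4 to 5, 2 to 2, 3 to 4 and 1 to 2. The highest counts came without KO ZT16 replicate 2, except in KO (without KO ZT16 replicate 6). Ranges were -0.32 to 0.28 for Per1 at ZT4, -0.39 to 0.48 for Ciart in the interaction, -2.07 to -1.77 and -2.44 to -1.57 for Ciart at ZT16 and ZT4, 0.24 to 0.49 for Cry2 at ZT16, 0.37 to 0.51 for Cry2 between the times in WT, and -1.61 to -1.23 for Per2 in the interaction. Signs turned for uncalled values: Per1 at ZT4 (0.28 without WT ZT4 replicate 5), Ciart in the interaction (-0.19 and -0.39 without KO ZT4 replicate 2 and WT ZT4 replicate 5), and Arntl at ZT4 (0.096 without WT ZT4 replicate 1). Plain totals moved 7 and totals without mitochondrial genes 17 of 24 member group means by at least 1 SD, shifting every gene between groups by -0.23 to 0.18 on the log2 scale; uncalled signs of Per1 at ZT4 and of Cry1 between the times in KO turned. The cause of these changes was not tested. Ciart had the fewest counts of the 6, and its WT ZT4 libraries differed beyond counting error (exact 95% intervals of 0.532 to 1.17 CPM in replicate 1 and 2.24 to 3.42 CPM in replicate 5).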
